A study of Mus musculus with 2 samples.

Results

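Hepatic stellate cells are the vitamin A storing pericytes of the liver sinusoid, and 10 genes that mark them were followed here in liver of FVB/N mice. The genes were taken by symbol: *Lrat*, *Reln*, *Hgf*, *Pdgfrb*, *Ngfr*, *Rgs5*, *Des*, *Acta2*, *Dcn* and *Ecm1*. All 10 were listed among the 21878 gene symbols of the deposited tables, and all 10 reached the minimum of 20 reads summed over the libraries. The study compared 1 polyA RNA library from an untreated FVB/N mouse liver with 1 from a liver given TSA, and c-Myc had been delivered to both by hydrodynamic injection, a forceful tail vein injection that carries DNA into hepatocytes. Both groups therefore carry c-Myc, and no liver without it was analysed here. The labels give no age, no TSA dose or duration, no fuller name for TSA and no promoter for c-Myc, and they do not say whether a sample was tumour, surrounding liver or a pool of animals. The series title links TSA to slower c-Myc liver tumour development.

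In healthy liver, stellate cells lie between the sinusoidal endothelium and the hepatocytes, hold retinyl esters in lipid droplets, and release growth signals to neighbouring cells. After injury they can activate: they lose their retinoid, divide in response to platelet-derived growth factor, and become contractile myofibroblasts that lay down collagen. The 10 markers span these states, since *Lrat*, *Reln* and *Hgf* are used to find resting cells, while *Acta2* marks activated cells. *Pdgfrb*, *Des* and *Rgs5* are found in stellate cells and other mural cells of vessels. None of the 10 is exclusive to the stellate cell. Decorin is also made by portal fibroblasts, *Acta2*, *Des* and *Rgs5* by smooth muscle and pericytes, *Ngfr* by nerve sheath cells, and *Ecm1* has been found in hepatocytes.

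The untreated library held 17281523 reads and the TSA library 17088227. Hepatocyte markers were present in both, and all 10 were higher with TSA, among them *Alb*, for serum albumin, at 1280.3 FPKM without treatment and 40496 with TSA. FPKM is reads per kilobase of gene model and scaled to the library total, so it allows levels to be compared between genes. With 1 library per group no test between conditions was possible: each parenthesis holds a 95% interval for counting error alone, and the spread between animals is unknown. Ratios are TSA over untreated after TMM scaling, which multiplies each ratio of deposited FPKM by 1.80. A gene is called higher or lower when its ratio is at least 2-fold in that direction and the interval excludes 1. In bulk tissue, fewer cells of a type and less RNA per cell cannot be told apart.

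With TMM scaling 8 of the 10 markers were higher with TSA, none was lower, and *Pdgfrb* and *Acta2* were neither. Over all 13027 genes tested, 26.0% were higher and 27.4% lower. These shares are the background for every TMM list count given below. The median log2 ratio of the markers was 3.89, against -0.11 for all genes tested. With total counts in place of TMM 7 markers were higher and 1, *Pdgfrb*, was lower, against a background of 16.0% higher and 48.7% lower. These total-count shares are the background for every list count by total counts given below. The share of higher among called markers went from 100% with TMM to 87.5% with total counts. Calls at 1.5-fold gave 9 markers higher beside 32.6% of all genes, and calls at 4-fold gave 6 higher and 0 lower beside 15.0% and 12.6%. FPKM ratios with 0.1 added gave 7 higher and 1 lower beside 15.2% and 47.5%, and with 1 added 6 higher beside 11.7%. The change to total counts took the share of higher among all called genes from 48.6% to 24.7%, and the median log2 ratio of all genes to -0.96.

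The markers spread over a wide range of ratios. *Lrat*, *Reln*, *Hgf*, *Ngfr*, *Dcn* and *Ecm1* lay between 14.2-fold (*Hgf*) and 26.8-fold (*Reln*), while *Rgs5*, *Des*, *Acta2* and *Pdgfrb* lay between 3.70 (*Rgs5*) and 0.840 (*Pdgfrb*). The ratio of one marker relative to another does not depend on library scaling. Of the 45 pairs of markers 35 had ratios that differed beyond counting error, and the other 10 pairs were all drawn from the 6 genes with the larger ratios. The widest gap was between *Reln* and *Pdgfrb*, whose ratios differed 31.9-fold (25.3 to 40.2).

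**Figure D1:**
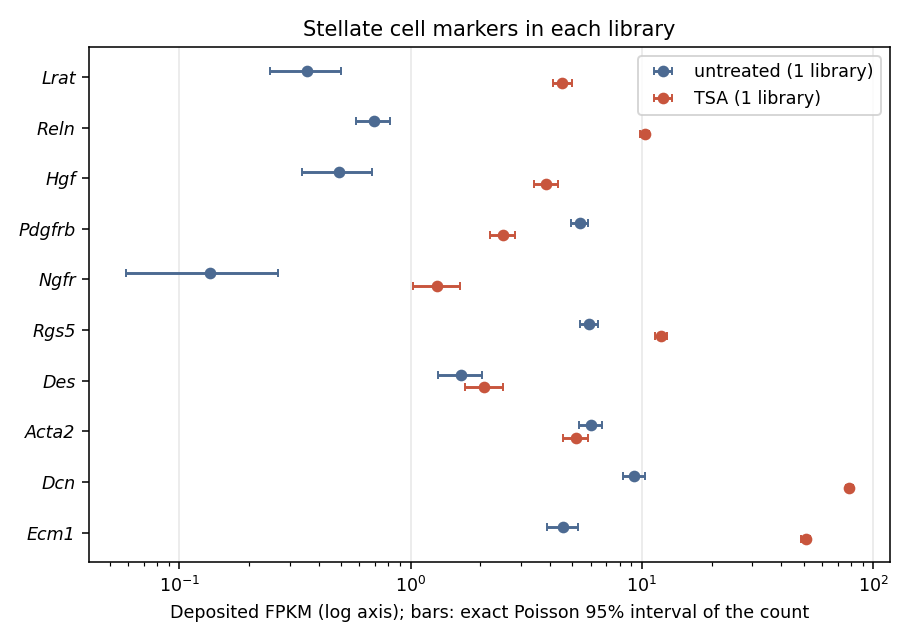
Level of each marker in the untreated and the TSA library in FPKM on a log axis, with exact Poisson 95% intervals of the read count as bars. FPKM compares the libraries by total counts. *Lrat*, *Reln*, *Hgf*, *Ngfr*, *Dcn* and *Ecm1* stand far apart between the libraries, and *Des* and *Acta2* lie close together. *Pdgfrb* is the marker with the clearest lower FPKM with TSA (5.37 against 2.50), though its TMM ratio of 0.840 is no call.

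*Lrat* encodes lecithin retinol acyltransferase, the enzyme that makes the retinyl esters stored in stellate cell droplets. It had 33 reads (22.7 to 46.3) without treatment and 414 (375 to 456) with TSA, or 0.357 and 4.53 FPKM. The untreated level was low, at the 21.4th percentile of detected genes, and the TSA level stood at the 58.0th. The ratio was 22.9-fold (16.0 to 33.7), and 12.7-fold with total counts.

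The retinoid genes around *Lrat* were mostly higher too: of 15 tested 11 were higher and 1 lower, or 9 and 2 by total counts, with a median log2 ratio of 2.68. Many of them are expressed by hepatocytes. *Rbp4* and *Ttr*, for the plasma carriers that hepatocytes secrete, were 10.5-fold (10.2 to 10.7) and 6.39-fold (6.30 to 6.49) higher. *Cyp26a1* and *Cyp26b1*, for enzymes that break down retinoic acid, were 421-fold (143 to 2046) and 282-fold (110 to 1038) higher, from 3 and 4 reads without treatment. *Rarb*, for a retinoic acid receptor that retinoic acid itself induces, was 62.7-fold (31.4 to 147) higher, from 8 reads without treatment. The related receptor genes *Rara* and *Rarg* were neither with TMM, at 0.865 (0.747 to 0.998) and 1.42 (1.08 to 1.86). By total counts *Rara* was lower, at 0.479. These receptor genes are named after their values were seen.

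*Reln* encodes reelin, a large secreted glycoprotein known from neuron migration and used as a marker of resting stellate cells. Reads numbered 140 (118 to 165) without treatment and 2053 (1965 to 2144) with TSA, or 0.692 and 10.3 FPKM. This gave the largest ratio of the 10 markers, 26.8-fold (22.5 to 32.0), or 14.8-fold with total counts. Its ratio and that of *Lrat* did not differ beyond counting error, at 1.17-fold (0.763 to 1.75) apart.

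Reelin acts through the receptors encoded by *Vldlr* and *Lrp8*. These were opposite in direction: *Vldlr* was 16.0-fold (11.7 to 22.3) higher with TSA, from 0.293 to 2.60 FPKM, and *Lrp8* had 208 reads without treatment and 4 with TSA, at a ratio of 0.0351 (0.00947 to 0.0912). *Dab1*, for the adaptor that both receptors bind, and named after its values were seen, was scarce in both libraries, at 11 and 18 reads. *Pafah1b1* and *Crk*, further down the pathway, were neither, at 0.931 (0.872 to 0.994) and 1.06 (0.993 to 1.13). In all, 2 of the 7 receptor and adaptor genes were higher and 2 lower, beside 26.0% and 27.4% of all genes. With total counts 1 was higher and 3 lower, beside 16.0% and 48.7%.

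The upstream sequences of 4 markers are shown because their ratios lie far apart: *Lrat* and *Reln* have the largest ratios, and *Des* and *Acta2* encode the cytoskeletal proteins whose ratios were the next smallest after that of *Pdgfrb*. Each run is the 250 bases before the annotated start in RefSeq on GRCm38.p6, 5′ to 3′ on the gene's strand; entries were matched by symbol for 8 of the 10 markers. The positions are *Lrat* chr3:82903975-82904224 (minus strand), *Reln* chr5:22344706-22344955 (minus strand), *Des* chr1:75360042-75360291 (plus strand) and *Acta2* chr19:34255374-34255623 (minus strand). For the deposited tables, no build is given in the sources used here. Capitals mark matches on either strand to the E-box CANNTG, which contains the MYC E-box CACGTG, the GC box GGGCGG, the MCAT element CATTCC, the TATA box TATAAA, or a CArG-like sequence. CArG is the core bound by serum response factor, a regulator of muscle-type genes, and CArG-like here allows 1 G or C among its 6 central bases.
Lrat: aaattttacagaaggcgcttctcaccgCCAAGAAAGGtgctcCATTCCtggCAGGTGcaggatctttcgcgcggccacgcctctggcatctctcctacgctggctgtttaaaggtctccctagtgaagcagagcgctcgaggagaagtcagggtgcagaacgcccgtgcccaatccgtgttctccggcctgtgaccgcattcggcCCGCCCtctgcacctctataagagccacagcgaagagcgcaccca
Reln: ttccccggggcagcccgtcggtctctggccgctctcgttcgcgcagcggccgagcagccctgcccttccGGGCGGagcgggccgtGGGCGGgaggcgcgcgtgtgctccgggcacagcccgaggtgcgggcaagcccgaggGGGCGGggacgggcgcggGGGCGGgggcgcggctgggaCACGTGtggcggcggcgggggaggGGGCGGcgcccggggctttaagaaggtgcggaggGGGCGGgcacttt
Des: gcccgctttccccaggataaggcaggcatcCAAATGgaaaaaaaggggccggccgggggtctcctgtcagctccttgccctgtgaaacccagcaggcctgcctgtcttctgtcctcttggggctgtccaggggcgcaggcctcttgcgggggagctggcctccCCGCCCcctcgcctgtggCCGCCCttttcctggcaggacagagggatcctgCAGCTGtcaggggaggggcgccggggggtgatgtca
Acta2: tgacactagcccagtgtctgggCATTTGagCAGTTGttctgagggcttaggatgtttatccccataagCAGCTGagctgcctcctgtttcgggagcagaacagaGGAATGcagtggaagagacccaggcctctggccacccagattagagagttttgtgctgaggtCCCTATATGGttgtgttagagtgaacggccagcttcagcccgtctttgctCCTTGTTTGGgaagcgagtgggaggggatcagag

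The *Acta2* run held 2 CArG-like sequences, 3 E-boxes and 1 MCAT element. In the *Lrat* run stood 1 CArG-like sequence, 1 E-box, 1 MCAT element and 1 GC box. The *Reln* run held 6 GC boxes and 1 E-box of the CACGTG form. *Des* had 2 E-boxes and 2 GC boxes. Among 32851 upstream runs of the same length in RefSeq, 8.59% held a CArG-like sequence, 1.47% a CArG box without that allowance, 66.2% an E-box, 6.02% CACGTG, 32.7% a GC box, 12.6% an MCAT element and 12.4% a TATA box. A match is a description of letters, and no binding was measured in these libraries.

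*Hgf* encodes hepatocyte growth factor, a mitogen that stellate cells release and hepatocytes receive. It had 35 reads (24.4 to 48.7) without treatment and 273 (242 to 307) with TSA, or 0.488 and 3.85 FPKM. The ratio was 14.2-fold (9.99 to 20.9) by TMM and 7.89-fold by total counts.

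The growth factor is made as an inactive precursor that proteases cut, and these enzymes differed from one another. *Hpn*, for the hepatocyte protease hepsin, was 4.87-fold (4.65 to 5.09) higher. Of other protease genes, named after their values were seen, *Hgfac* was 8.12-fold (7.48 to 8.82) higher. *St14* was at 0.0843 (0.0456 to 0.144) and *Plau* at 0.172 (0.0718 to 0.354), both lower, and *Plat* at 0.564 (0.307 to 0.987) was neither. *Mst1*, for a related liver ligand, was 13-fold (11.7 to 14.5) higher. *Spint1*, for an inhibitor of such proteases, had 239 reads without treatment and 9 with TSA, at a ratio of 0.0687 (0.0310 to 0.133). *Met*, the receptor gene, was at 16.5 FPKM without treatment and 20.5 with TSA, which TMM scaling turns into 2.24-fold (2.11 to 2.37) and total counts into 1.24-fold, so its call depended on scaling. Of 12 genes around *Hgf* 4 were higher and 4 lower, beside 26.0% and 27.4% of all genes. By total counts 3 were higher and 7 lower, beside 16.0% and 48.7%. The ligand therefore had a larger ratio than its receptor, an order that library scaling cannot change.

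*Pdgfrb* encodes the receptor through which platelet-derived growth factor makes activated stellate cells divide. It had 565 reads (519 to 614) without treatment and 260 (229 to 294) with TSA, or 5.37 and 2.50 FPKM. The ratio was 0.840 (0.722 to 0.974) with TMM, which is no call, and 0.465 (0.400 to 0.540) with total counts, which is a lower call. It was the marker with the lowest ratio, and it went from rank 4 of the 10 markers by FPKM without treatment to rank 8 with TSA.

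*Pdgfb*, for the ligand with highest affinity for this receptor, had 453 reads without treatment and 16 with TSA, at a ratio of 0.0645 (0.0365 to 0.106). *Pdgfa* was at 0.799 (0.608 to 1.04), and the alpha receptor gene *Pdgfra* was 4.55-fold (3.37 to 6.19) higher, from 0.461 to 1.16 FPKM. Of 5 ligand and receptor genes tested beside *Pdgfrb* 3 were higher and 1 lower, against 1 and 2 with total counts. The gene with the lower call under both scalings was *Pdgfb*.

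**Figure D2:**
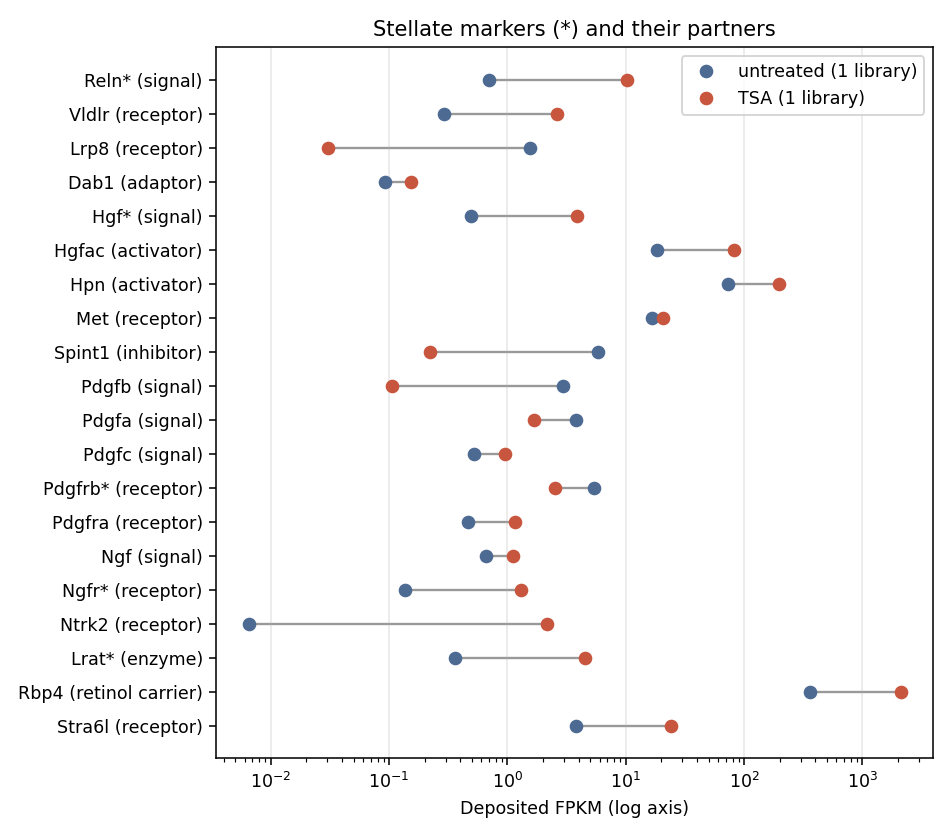
FPKM on a log axis of 5 signalling and storage markers with their partners, without treatment and with TSA, with markers starred and each gene's role in parentheses. *Reln*, *Hgf*, *Ngfr* and *Lrat* lie to the right with TSA, while *Pdgfb*, *Lrp8* and *Spint1* lie to the left.

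*Ngfr* encodes the p75 neurotrophin receptor, a member of the tumour necrosis factor receptor family. It was the scarcest of the markers in both libraries, with 8 reads (3.45 to 15.8) without treatment and 76 (59.9 to 95.1) with TSA, or 0.136 and 1.30 FPKM. The ratio of 17.3-fold (8.37 to 41.6) therefore has the widest interval of the 10, and it was 9.61-fold with total counts. *Ntrk2*, for the TRKB receptor, went from 4 reads in the untreated library to 1317 in the other, a ratio of 601-fold (234 to 2209). *Sort1*, for a sorting partner of p75, was at 0.493 (0.435 to 0.557), and *Ngfrap1*, for a small protein that associates with p75, had 3350 reads without treatment and 28 with TSA, at a ratio of 0.0153 (0.0101 to 0.0221). Of 6 neurotrophin genes tested 3 were higher and 3 lower, or 2 and 3 by total counts. Of the nerve sheath markers, *Sox10* had 0 reads without treatment and 1 with TSA, and *Mbp*, which other cells also express, was at 0.0337 (0.0196 to 0.0543).

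*Rgs5* encodes a regulator of G protein signalling that is a common pericyte marker. It had 463 reads (422 to 507) without treatment and 939 (880 to 1001) with TSA, or 5.89 and 12.1 FPKM. Its ratio was 3.70-fold (3.31 to 4.15), between the markers of resting cells and those of the cytoskeleton, and 2.05-fold (1.83 to 2.30) with total counts. Against *Acta2* the ratio was 2.39-fold (1.94 to 2.93) larger, a difference beyond counting error. Among 7 related RGS genes tested 4 were higher and 1 lower, or 2 and 2 with total counts. *Rgs16*, a member that metabolic signals regulate in liver, was 46.8-fold (41.0 to 53.6) higher, and *Rgs19* was at 0.183 (0.124 to 0.261).

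*Des* encodes desmin, the muscle-type intermediate filament by which rodent stellate cells were long identified. It had 87 reads (69.7 to 107) without treatment and 109 (89.5 to 131) with TSA, or 1.64 and 2.08 FPKM. The intervals of the read counts overlap. TMM scaling gave 2.29-fold (1.71 to 3.07), just past the size for a call, and total counts 1.27-fold (0.947 to 1.70), which is none. Among 6 filament partners 3 were higher and 1 lower, or 2 and 3 with total counts. *Dst*, for a linker of filaments to other structures, was 4.90-fold (4.52 to 5.32) higher, *Cryab*, for a small heat shock protein that binds desmin, 4.28-fold (2.73 to 6.86), and *Plec*, for the linker plectin, was at 0.604 (0.567 to 0.644).

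*Acta2* encodes alpha smooth muscle actin, the usual marker of the activated, contractile state. It had 294 reads (261 to 330) without treatment and 250 (220 to 283) with TSA, or 6.0 and 5.16 FPKM. The direction depended on scaling, with a ratio of 1.55 (1.31 to 1.84) by TMM and of 0.860 (0.724 to 1.02) by total counts, and neither is a call. Actin genes are alike in sequence, and how reads that match several of them were assigned is not known from the labels. *Actb* and *Actg1*, for the cytoplasmic actins, were far more abundant, at 798 and 587 FPKM without treatment and 288 and 98.1 with TSA. *Actg2*, for the smooth muscle gamma actin, was 7.63-fold (3.89 to 16.3) higher from 11 reads, and the muscle genes *Acta1* and *Actc1* had at most 7 reads.

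Smooth muscle and pericyte genes did not share 1 direction. Of 12 tested, 6 were higher and 3 lower, or 5 and 4 by total counts, with a median log2 ratio of 1.0. *Myh11*, for smooth muscle myosin, was 8.26-fold (6.21 to 11.1) higher and *Mylk*, for myosin light chain kinase, 5.17-fold (4.78 to 5.59) higher. *Abcc9*, for a potassium channel subunit of pericytes, was 2.63-fold (2.32 to 2.98) higher, or 1.46-fold by total counts. *Cspg4*, for the pericyte proteoglycan NG2, was at 0.0732 (0.0374 to 0.130). The smooth muscle gene *Cnn1* had 0 reads without treatment and 26 with TSA, and *Pln* had 0 and 2. The summed level of the 15 listed genes was 43.6 FPKM without treatment and 39.6 with TSA. Its direction depended on scaling, with a ratio of 0.909 by total counts and 1.64 with TMM. The part of smooth muscle cells in the values of *Acta2*, *Des* and *Rgs5* was not tested.

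*Dcn* encodes decorin, a small leucine-rich proteoglycan that binds collagen fibrils and TGF-beta. It was the most abundant marker in both libraries, with 336 reads (301 to 374) without treatment and 2834 (2731 to 2940) with TSA, or 9.24 and 78.8 FPKM. The ratio was 15.4-fold (13.7 to 17.3), or 8.53-fold with total counts. Its TSA level stood at the 94.7th percentile of detected genes.

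The relatives of decorin had ratios from 0.626 (*Aspn*, 0.296 to 1.23) to 10.04 (*Ogn*). *Bgn*, for biglycan, was at 46.5 and 56.0 FPKM, a ratio of 2.17-fold (2.05 to 2.31) with TMM and 1.21-fold with total counts. *Lum*, for lumican, was 8.42-fold (6.22 to 11.6) higher, *Ogn*, for osteoglycin, 10.04-fold (5.07 to 22.1), and *Prelp* 5.50-fold (4.86 to 6.23). Of 7 relatives tested 5 were higher and none lower, or 3 and 1 with total counts. *Kera* and *Epyc* had 0 reads in both libraries and were not tested, and 0 reads do not show that a transcript is absent.

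*Ecm1* encodes extracellular matrix protein 1, a secreted protein that keeps TGF-beta in its latent form in liver. It had 177 reads (152 to 205) without treatment and 1970 (1884 to 2059) with TSA, or 4.54 and 51.1 FPKM. The ratio was 20.3-fold (17.4 to 23.8), or 11.3-fold with total counts, and the gene went from rank 5 of the markers to rank 2. Together *Dcn* and *Ecm1* made up much of the change in the summed marker level, which was 34.4 FPKM without treatment and 171.7 with TSA. Without *Dcn* and *Ecm1* the sum was 20.6 FPKM and 41.8 FPKM.

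The TGF-beta pathway itself was mixed, with 6 of 17 genes higher and 1 lower by TMM, beside 26.0% and 27.4% of all genes. By total counts 2 were higher and 4 lower, beside 16.0% and 48.7%. *Eng*, for the endothelial co-receptor endoglin, was 5.30-fold (4.80 to 5.86) higher and *Ltbp1*, for a latency protein, 11.2-fold (6.21 to 22) higher. *Smad4*, for the shared signal mediator, was at 0.672 (0.623 to 0.724). *Tgfb1*, for the main fibrogenic ligand and named after its value was seen, was at 1.03 (0.859 to 1.24), or 0.571 with total counts.

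**Figure D3:**
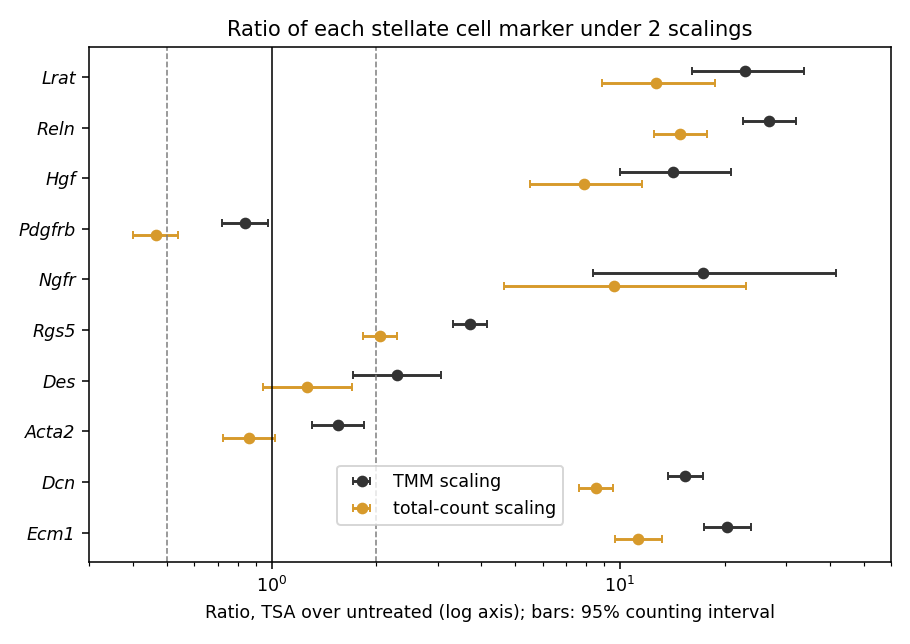
Ratio of TSA over untreated for each marker on a log axis under TMM and total-count scaling, with 95% counting intervals; the solid line is a ratio of 1 and the dashed lines are 2-fold in either direction. *Acta2* lies on opposite sides of 1 under the scalings, *Des* passes 2-fold under TMM alone, and *Pdgfrb* passes 2-fold lower under total counts alone.

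**Figure D4:**
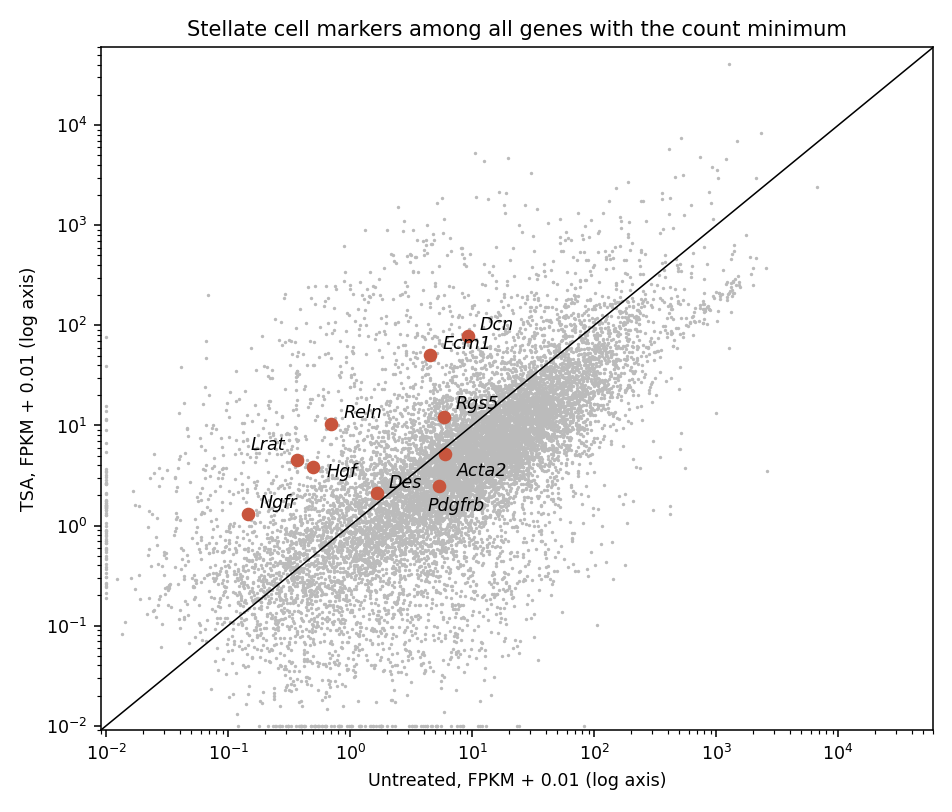
FPKM without treatment and with TSA for all 13027 genes tested (grey) and the 10 markers (red), on log axes with 0.01 added, and a line of equal FPKM, which compares the libraries by total counts. *Acta2* and *Pdgfrb* lie below the line and the other 8 markers above it.

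Other genes enriched in stellate cells were mostly higher with TSA: 15 of 19 tested with TMM, with 2 lower and a median log2 ratio of 2.94, or 13 and 2 by total counts. *Cxcl12*, for a chemokine, was 4.38-fold (4.22 to 4.55) higher, from 30.0 to 72.9 FPKM, and *Steap4*, for a metal reductase, 20.4-fold (17.7 to 23.6). *Colec10*, for a collectin, and *Rspo3*, for a WNT amplifier, were 454-fold (155 to 2209) and 78.5-fold (21.1 to 658) higher, from 3 and 2 reads without treatment. Further members are named after their values were seen. *Vipr1*, for a neuropeptide receptor, was 43.8-fold (30.2 to 65.9) higher, *Gdf2*, for the ligand BMP9, 51.2-fold (30.7 to 92.3), and *Hand2*, for a transcription factor, 27.4-fold (12.1 to 76.6). *Bmp10*, for a vascular ligand, had 0 reads without treatment and 32 with TSA. With 3 reads entered for the 0 its ratio was 19.5-fold by TMM, with an interval from 14.9 upward, and 10.8-fold by total counts. The astrocyte-type filament gene *Gfap* had 1 and 6 reads. The 2 lower members were the parathyroid hormone receptor gene *Pth1r* at 0.107 (0.0842 to 0.133) and *Nes*, for the filament protein nestin, at 0.451 (0.340 to 0.592). *Cygb*, for cytoglobin, and *Gata4* were neither with TMM, at 1.15 (0.919 to 1.44) and 1.41 (1.22 to 1.62).

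Matrix and contractile genes of activated stellate cells and myofibroblasts had a lower median. Of 24 tested 2 were higher and 8 lower, beside 26.0% and 27.4% of all genes, with a median log2 ratio of -0.53 against -0.11 for all genes. By total counts none was higher and 17 were lower, beside 16.0% and 48.7%. *Col1a1*, for the main fibrillar collagen of scars, had 3122 reads without treatment and 279 with TSA, or 30.5 and 2.75 FPKM, a ratio of 0.163 (0.144 to 0.184). *Lox*, for the enzyme that crosslinks collagen, was at 0.154 (0.0823 to 0.266). *Col3a1* was at 0.603 (0.561 to 0.647) and *Sparc* at 0.776 (0.733 to 0.821), neither called with TMM. *Timp1*, for an inhibitor of collagenases and named after its value was seen, had 51 and 12 reads, a ratio of 0.429 (0.208 to 0.816). The higher members were *Mmp2* and *Thbs2*, at 2.13-fold (1.57 to 2.89) and 2.06-fold (1.44 to 2.95), neither of them called with total counts. The summed level of this list was 315 FPKM without treatment and 124 with TSA, while that of the markers was 34.4 and 171.7. For this list the ratio of the sums was 0.393 by total counts and 0.709 with TMM. It was below 1 under both scalings, but with TMM it was short of 2-fold.

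Genes of the cells that surround the stellate cell were also higher in the TSA library. All 9 sinusoidal endothelial markers were higher, 8 of them also by total counts, with a median log2 ratio of 4.85 and a summed level of 16.4 FPKM without treatment and 190 with TSA. *Stab2*, for a hyaluronan scavenger receptor, was 18.6-fold (15.9 to 21.7) higher and *Clec4g*, for a sinusoidal lectin, 119-fold (76.8 to 196). *Bmp2* and *Dnase1l3* were 44.1-fold (27.2 to 76.5) and 40.5-fold (32.6 to 50.8) higher. Of 8 genes of vascular endothelium in general 6 were higher and none lower, or 3 and 1 by total counts, and their median was 1.42. *Cdh5*, for the endothelial cadherin, was 2.24-fold (2.01 to 2.49) higher and *Pecam1* at 1.71 (1.52 to 1.92). All 10 hepatocyte markers were higher, 9 with total counts, with a median of 2.91. The part of these cell types in the ratios of the stellate markers was not tested.

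Kupffer cell and macrophage genes were split with TMM, 5 of 11 higher and 1 lower, with a median log2 ratio of 0.13. By total counts 3 were higher and 4 lower, beside 16.0% and 48.7% of all genes. *Clec4f*, for a lectin of resident Kupffer cells, was 44.3-fold (36.3 to 54.5) higher and *Vsig4* 18.2-fold (14.3 to 23.5), while *C1qc* and *Cd5l* were at 0.886 (0.821 to 0.954) and 0.713 (0.673 to 0.755). *Timd4* was neither, at 1.09 (0.932 to 1.28), and the gene lower with TMM was *Cd68*, at 0.292 (0.256 to 0.333). Both were named after their values were seen. The summed level of these macrophage genes was 542 FPKM without treatment and 347 with TSA. Its direction depended on scaling, with a ratio of 0.639 by total counts and 1.15 with TMM. Of 12 portal fibroblast genes 7 were higher and 2 lower, or 4 and 4 by total counts, with a median of 1.09. Among them *Dpt*, for dermatopontin, was 16.8-fold (8.45 to 38.1) higher and *Cd34* at 0.427 (0.329 to 0.549). The 6 mesothelial genes were all higher under either scaling, with a median of 2.91, from a summed level of 0.643 FPKM to 3.22 FPKM. They were scarce, with 30 reads in all without treatment and 144 with TSA. *Wt1* had 0 reads without treatment, so its ratio rests on the 3 reads entered. All 4 erythroid genes tested were higher under either scaling, with *Hba-a1*, for alpha globin, at 5.38-fold (4.92 to 5.89). Of 6 lymphocyte genes 3 were higher under either scaling and 1 was lower by total counts, and of 6 bile duct genes 3 were higher and 2 lower, or 2 and 3 by total counts. The part of these cells in the values of the stellate markers, decorin of portal fibroblasts included, was not tested either.

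**Figure D5:**
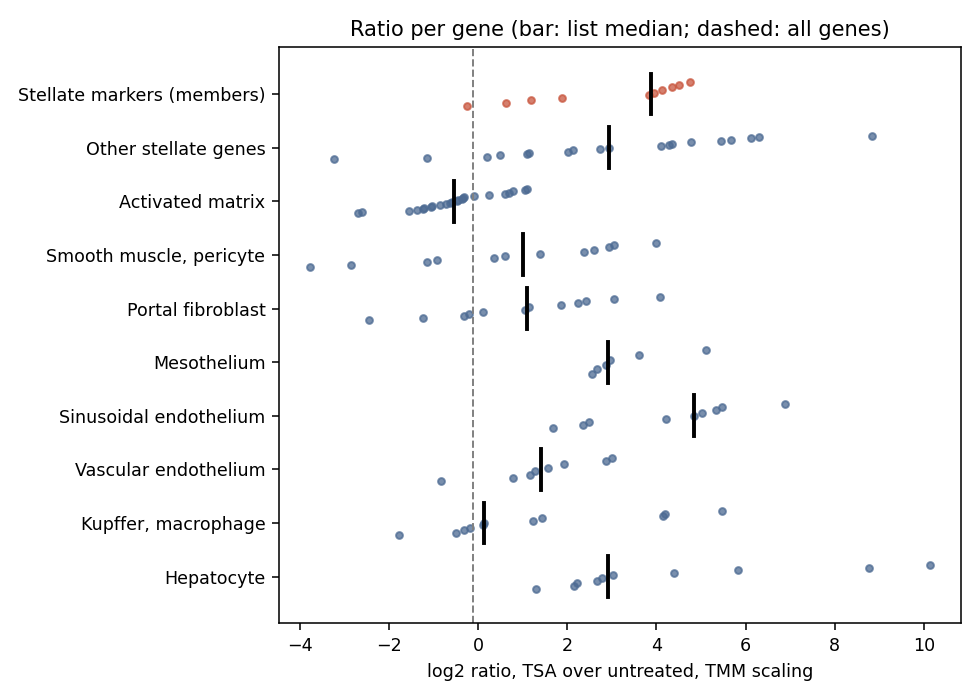
log2 ratio of TSA over untreated with TMM scaling for each gene tested (points) in the marker set and 9 comparison lists, with the list median as a black bar and the median of all genes tested as a dashed line. The stellate markers (median 3.89) lie between sinusoidal endothelium (4.85) and other stellate genes (2.94), and activated matrix genes lie at -0.53.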

How the data were processed

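PolyA RNA from 2 mouse livers, 1 untreated and 1 given TSA, was extracted with the mirVana kit per the labels' protocols. The deposited read counts are whole numbers per gene symbol. Dividing counts by the deposited FPKM values and the library total gave whole gene lengths that matched between libraries, within 0.1 base, for all 14271 genes with reads in both, so the FPKM hold no further scaling. Per the submitters' processing notes, DESeq, HISAT2, Bowtie2 and Trimmomatic were used, without roles or versions. The genome build, gene models, counter and strandedness were not given in the sources used here. Reads of antisense or overlapping genes therefore cannot be told apart. In GENCODE M21, exons of *Reln*, *Des*, *Hgf* and *Ecm1* overlap other gene models that the tables do not list.

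Counts were scaled by TMM in edgeR 4.0.16 (R 4.3.3), with factors of 1.34 (untreated) and 0.744 (TSA). Intervals of counts are exact Poisson, and those of ratios exact conditional binomial (Clopper-Pearson) at 95%. Because the reads carry no molecular identifiers, they are not independent molecules. Genes with at least 20 summed reads were tested, and genes with 0 reads in a library entered ratios and list medians at 3 reads. The calls were tested on simulated Poisson counts with total-count scaling, which leaves out the TMM factor and the spread between animals. Other settings were total counts, DESeq2 1.42.0 size factors, upper quartiles, FPKM plus 0.1 or 1, other count minimums (1 and 50), a prior count of 2 and calls at 1.5-fold, 4-fold or with the interval bound past 2-fold. Python 3.11.15 with pandas 2.3.3, scipy 1.17.1 and matplotlib 3.10.9 was used.

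The markers and 22 comparison lists were chosen with earlier results of these data known, and the actin list was added after the markers' values were seen. In each list the rule names, among genes with at least 50 summed reads, the 2 with most reads and the 2 with the largest difference; not all of these are printed, and zero-count genes, *Sox10*, *Aspn*, *Gfap* and the actins were named after their values were seen. A few genes, such as *Nes*, *Vim*, *Ttr* and *Tagln*, stand in more than 1 list. Of the 7 nerve sheath genes 2 were tested, 1 lower and 1 neither. A list gene is not reported here. *Ctgf* and *Ngfrap1* are the tables' symbols for *Ccn2* and *Bex3*. Genes of most similar pattern were not sought, because 2 libraries give 1 ratio per gene.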

Additional observations from a re-analysis of the deposited data

How the results depend on the processing

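No paired analysis was possible because each group has 1 library, and no library could be left out. Under the 11 other settings the number of markers higher with TSA was between 6 (FPKM plus 1, or a 4-fold call) and 9 (a 1.5-fold call), against 8. The number lower was 1 with total counts and 1 with FPKM plus 0.1, against 0; the gene was *Pdgfrb*, and both settings leave out the TMM factor. Over all genes, total counts gave 2084 higher and 6339 lower against 3382 and 3573. FPKM plus 1 gave 1518 higher, and a 4-fold call 1951 higher and 1640 lower. FPKM plus 0.1 gave 1983 higher and 6186 lower. The *Acta2* ratio was above 1 in 3 of 6 settings that change the ratio, from 0.860 to 1.59. No called marker turned direction in those 6 settings. FPKM plus 1, which also drops the TMM factor, gave a ratio of 2.03 for the scarce *Ngfr* and 4.07 for *Lrat*, against 9.61 and 12.7 with total counts. The 8 untreated reads of *Ngfr* and the missing replicates limit precision.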
